A study of Homo sapiens with 4 samples.

Results

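The 7 genes described here encode the Tribbles pseudokinases TRIB1 and TRIB2 and the C/EBP transcription factors CEBPA, CEBPB, CEBPD, CEBPE and CEBPG, out of 19775 genes on the arrays. Their members were all 12 probe sets annotated to these symbols alone, and the family was chosen by the signals of the combination and control arrays, because TRIB1 had the largest increase with the combined treatment among them. Messenger RNA of U937, an established human cell line with features of immature monocytes, was profiled on 4 Affymetrix U133 Plus 2.0 arrays with 1 array in each group. The groups were untreated control cells, cells given 0.05% Sonazoid only, cells given ultrasound only (an intensity of 0.3 W/cm2 over 1 min), and cells given the combination of both at these settings. Sonazoid is an ultrasound contrast agent made of gas-filled microbubbles. The 3 treated groups were kept for 3 h at culture temperature before RNA was taken, and for the control no such time is stated in the sources used here. All groups were the same cell line, which the labels call a lymphoma line and the series title a leukemia line.

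Tribbles proteins have the fold of a kinase but little or no catalytic activity. TRIB1 and TRIB2 hold C/EBP alpha with the pseudokinase domain and the ubiquitin ligase COP1 with the C-terminal tail, so that C/EBP alpha is marked for degradation. C/EBP factors are leucine zipper proteins that bind DNA in pairs. In the myeloid lineage C/EBP alpha directs progenitors towards granulocytes and monocytes, C/EBP beta and C/EBP delta drive inflammatory genes, and C/EBP epsilon acts late in granulocyte maturation. C/EBP gamma lacks an activation domain and works through its partners. The arrays measured mRNA, so the degradation of C/EBP alpha protein is outside what they can show.

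Signals below are linear probe set intensities after 1 scale factor per array. Values under the floor, the median of all scaled values (23.8), were set to it before log2 was taken. A difference of 2-fold or more, a log2 difference of 1, was counted. Without replicates no test could be made, and every difference is between single arrays. With the values as deposited, without scale factors, the median log2 difference of all genes was 0.16 in the combination against control and 0.19 in the combination against ultrasound only, and members are to be read against these medians where deposited values are given. In bulk RNA a lower share of cells that express a gene and less RNA per cell cannot be told apart. Each array held 11984 to 12252 genes above the floor. Of the 9 myeloid markers on the table, 8 were above the floor on all 4 arrays, among them ELANE and ITGB2, and FCGR1A was below it on each. Their summed signal was 20964 with Sonazoid only and 26629 with ultrasound only, with the others between. Of 7 T and NK cell markers NKG7 was above the floor on all arrays (2771 to 3197), 3 were below it on all, and CD3E, CD3G and CD2 were above it on 1 or 2 arrays, at 38.5 or less. Of 4 B cell markers CD79A and PAX5 were above it on all, with a summed signal of the list of 185 to 231. Of 4 erythroid and platelet markers HBB was (34.9 to 63.4), with the sum between 76.3 and 105. Of 5 epithelial markers 0 were above it on all and 3 below it on all, but KRT8 read 18.6 in control and 38.6 to 59.2 on the treated arrays, and the list's sum ran from 59.4 with ultrasound only to 110 in the combination. The part of these markers in the results was not tested. The control genes ACTB and GAPDH had log2 differences between -0.21 and 0.14 in the 5 comparisons.

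TRIB1 stood out from the other 6 genes through a single probe set, 202241_at. Its signal was 79.2 in control, 45.7 with Sonazoid only, 326 after ultrasound only and 539 in the combination. Both arrays with ultrasound were thus above both arrays without it, and the combination was the highest of the 4. TRIB1 was 6.80-fold above control in the combination and 4.11-fold above it with ultrasound only. Against Sonazoid only, the combination was 11.8-fold higher. With Sonazoid only it was 1.73-fold below control, and the combination was 1.65-fold above ultrasound only; neither reached 2-fold. Since TRIB1 was chosen for its level in the combination, the values that include that array, or the control it was set against, are a description.

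**Figure D1:**
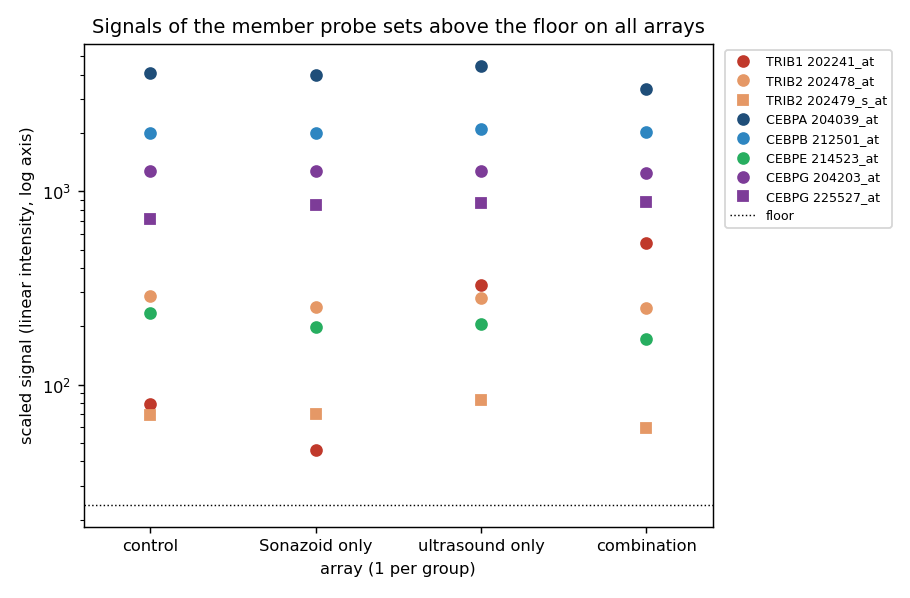
Scaled signal on a log axis for the 8 member probe sets above the floor on all 4 arrays, with 1 point per array and the floor as a dotted line. TRIB1 lies at 79.2 and 45.7 without ultrasound and at 326 and 539 with it, while each other probe set stays within a 1.40-fold range; heights of different probe sets are not comparable.

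The other probe sets annotated to TRIB1 gave no such picture. Probe set 239818_x_at, of a kind that can bind related sequences, was above the floor with ultrasound only (25.3) and below it on the other arrays (0.657 to 11.8). Probe set 235641_at was below the floor on all 4 arrays, at 9.998 in control, 3.59 with Sonazoid only, 1.28 after ultrasound only and 0.707 in the combination. Values below the floor were given no order, so the TRIB1 values rest on 1 of 3 probe sets.

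The spread across probe sets of like signal gives a scale for these differences. For the combination against control, the central 95% of the 6834 probe sets with a mean signal of 100 to 400 in the arrays compared had log2 differences between -0.61 and 0.68. TRIB1 was at 2.77. In the same signal range the limits for ultrasound only against control were -0.64 and 0.74, and TRIB1 was at 2.04. The control and Sonazoid only signals of TRIB1 were dimmer, with a mean of 62.5. Between these arrays the central 95% of probe sets under 100 ran from -0.99 to 0.96, and the TRIB1 difference of -0.79 lay inside it. For the combination against ultrasound only, where TRIB1 had a mean of 432 and a log2 difference of 0.73, the limits at signals of 400 to 1600 were -0.47 and 0.40, and TRIB1 lay above them. These limits describe probe sets on the same arrays and are not replicate error. TRIB1 was chosen by the combination and control arrays, so its place beside the limits is a description.

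Ranked from the highest log2 difference over genes measured on both sides, TRIB1 was number 4 of 11149 in the combination against control. It ranked 3 of 11146 in the combination against Sonazoid only, 11 of 11227 with ultrasound only and 192 of 11194 in the combination against ultrasound only. From the low end it ranked 130 of 11127 with Sonazoid only. TRIB1 was thus nearer the extreme in the comparisons that set an array with ultrasound against one without. Each comparison holds the combination or the control array, by which TRIB1 was chosen, so the ranks are a description.

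TRIB1 was the member whose combination differed from the product of the single treatments by over 2-fold. If the folds of Sonazoid only and ultrasound only had multiplied, TRIB1 would have stood at 188 in the combination, 2.37-fold above control. The measured 539 was 2.87-fold above that, a departure from additivity of 1.52 on the log2 scale. The dim Sonazoid only signal enters this value: with a stricter floor of 151, which lies above both TRIB1 signals without ultrasound, the departure was 0.73. Over all probe sets with 1 symbol, 2.63% departed by at least 2-fold upwards and 2.55% downwards. At a mean signal of 100 to 400 the central 95% of departures ran from -0.81 to 0.75, and under 100 from -1.41 to 1.40. The departure includes the combination and control arrays, by which TRIB1 was chosen. Its place beside these shares and limits is therefore a description.

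Ultrasound only against control and the combination against Sonazoid only share no array. The first holds the control array and the second the combination array, and TRIB1 was chosen by these 2 arrays. Both differences are therefore a description and are not independent of that choice. TRIB1 had log2 differences of 2.04 and 3.56. It was 1 of 9 genes above the floor on all arrays that were at least 4-fold higher in both, a group chosen after its values were seen. The departures of the other 8 ran from -0.27 to 0.85. HSPA6, a stress-inducible chaperone, had the value nearest to that of TRIB1 (0.85), and the signal of HSPA6 too was below control with Sonazoid only, at 58.5 against 97.3.

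**Figure D2:**
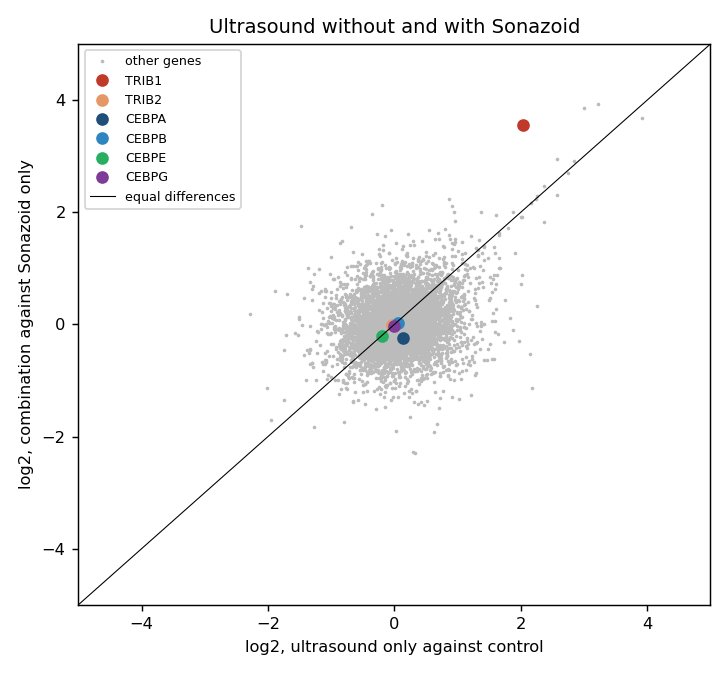
Log2 difference of ultrasound only from control (horizontal) against that of the combination from Sonazoid only (vertical), with 1 point per gene by its brightest probe set and a line of equal differences. TRIB1 lies at 2.04 and 3.56, above the line; the other members lie near the origin, and CEBPD, below the floor on all arrays, is absent.

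TRIB2, the other Tribbles member and also an adaptor for the degradation of C/EBP alpha, did not share the TRIB1 pattern. Probe set 202478_at read 289 in control, 252 with Sonazoid only, 280 after ultrasound only and 249 in the combination. The second, 202479_s_at, read 69.7, 70.4, 82.9 and 59.3 in the same order. Neither probe set separated the arrays with ultrasound from those without. In the second, the arrays with ultrasound were the highest and the lowest; in the first, the combination lay close to Sonazoid only (log2 -0.02, and 0.06 with the values as deposited and 0.01 under quantile normalisation). The log2 difference of the combination from control was -0.21 and -0.23 for the pair, and that of the combination from ultrasound only was -0.17 and -0.48. The difference of the first probe set from ultrasound only turned to 0.05 with the values as deposited.

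CEBPA, the myeloid lineage factor on which TRIB1 and TRIB2 act, had signals of 4078 in control, 4014 with Sonazoid only, 4460 after ultrasound only and 3378 in the combination. The combination was the lowest array and ultrasound only the highest, so the arrays with ultrasound lay on both sides of those without. The combination was 1.21-fold below control and 1.32-fold below ultrasound only (log2 -0.40). With the values as deposited these log2 differences were -0.10 and -0.19, beside the all-gene medians of 0.16 and 0.19. Above a mean signal of 1600 the central 95% of differences of the combination from ultrasound only ran from -0.30 to 0.28, so CEBPA lay below that range. For the combination against control it ran from -0.31 to 0.31, and CEBPA at -0.27 lay inside it.

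CEBPB, the inflammatory and macrophage member, was nearly level on the 4 arrays. It stood at 2012 in control, 1999 with Sonazoid only, 2098 after ultrasound only and 2022 in the combination, a range of 1.05-fold. The log2 difference of the combination from control was 0.01, and 0.18 with the values as deposited.

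CEBPE, the factor of late granulocyte maturation, had signals of 234 in control, 198 with Sonazoid only, 205 after ultrasound only and 172 in the combination. All 3 treated arrays were below control, and the combination was the lowest at a log2 difference of -0.44. This lay inside the central 95% of probe sets of like signal (-0.61 to 0.68). The difference was -0.27 with the values as deposited.

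CEBPG, the partner factor without an activation domain, had a pair of probe sets that disagreed slightly. The first, 204203_at, read 1278 in control, 1271 with Sonazoid only, 1275 after ultrasound only and 1239 in the combination, within 1.03-fold. The second, 225527_at, read 715, 849, 868 and 880 in the same order, so that control was the lowest array. Its log2 differences from control were 0.25 (Sonazoid only), 0.28 (ultrasound only) and 0.30 (combination), while those of the first lay between -0.04 and -0.003 and turned sign with the values as deposited in the combination and with Sonazoid only, and under quantile normalisation with ultrasound only.

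CEBPD, the acute phase member, could not be compared. Its 2 probe sets, 203973_s_at and 213006_at, were below the floor on all 4 arrays, with no signal above 15.1.

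Across all members, 8 of the 12 probe sets were above the floor on all 4 arrays, 1 on some and 3 on none. In the combination against control 1 of 8 measured probe sets was higher by 2-fold or more and 0 were lower by as much, where 1.42% and 0.984% of all measured probe sets were. The 1 was the TRIB1 probe set the family was chosen for, so nothing is read from this count. With ultrasound only 1 of 9 was higher and 0 lower (1.59% and 1.03% of all). With Sonazoid only 0 of 8 were at 2-fold either way (0.724% higher and 0.839% lower of all), and in the combination against ultrasound only 0 of 9 (1.03% and 1.28%). In the combination against Sonazoid only it was 1 of 8 higher and 0 lower (1.54% and 0.815%). The 7 probe sets above the floor on all arrays that belong to TRIB2 and the C/EBP genes gave 35 differences, and the largest in size was 0.48, for TRIB2.

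**Figure D3:**
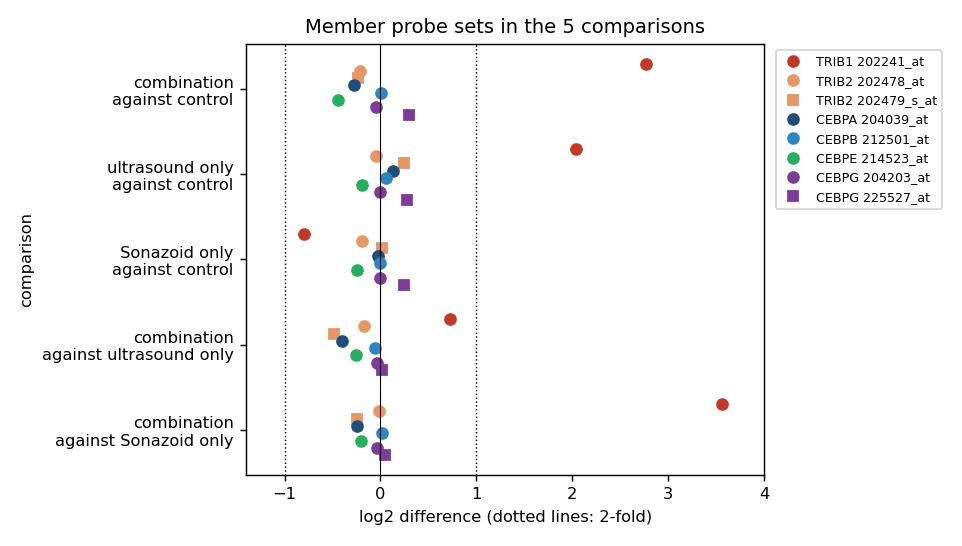
Log2 differences of the 8 member probe sets above the floor on all arrays in the 5 comparisons, with 1 point per probe set and dotted lines at 2-fold. TRIB1 lies beyond 2-fold in 3 comparisons, at 2.77, 2.04 and 3.56; all others lie within 0.48 of 0.

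The genes whose pattern was most like that of TRIB1 were found from 3 log2 differences from control, by Euclidean distance over 10627 genes above the floor on all arrays, where the median distance was 3.54. The 5 nearest were RGS2 (distance 0.71), which limits G protein signals, the AP-1 subunit FOS (0.98), the IgA receptor FCAR (0.99), HSPA6 (1.03) and TSC22D3, the glucocorticoid-induced leucine zipper protein (1.03). RGS2 read 91.7 in control, 72.3 with Sonazoid only, 543 after ultrasound only and 557 in the combination. FOS read 84.9, 84.8, 400 and 398 in the same order. The arrays with ultrasound differed little from each other in these genes: the log2 difference of the combination from ultrasound only lay between -0.09 and 0.11 in the 5, against 0.73 for TRIB1. The 3 differences share the control array, and 4 arrays carry few patterns.

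**Figure D4:**
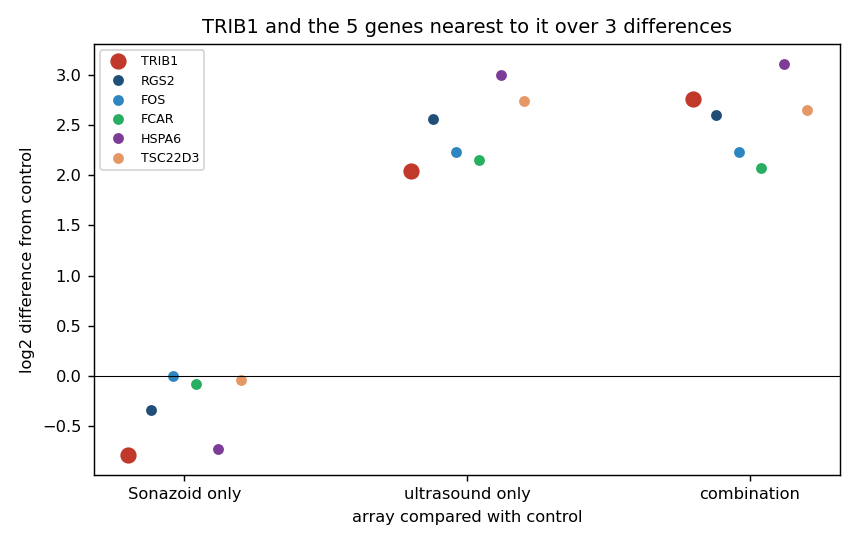
Log2 difference of each treated array from control for TRIB1 (large points) and the 5 genes nearest to it, with 1 point per gene and array. TRIB1 has the lowest value of the 6 with Sonazoid only (-0.79) and with ultrasound only (2.04), and lies between HSPA6 and TSC22D3 in the combination.

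Genes that work with these factors were followed in 7 lists of 75 genes in all, 59 of them measured in the combination against control. The lists were chosen with earlier results of these data known, so their counts are a description. In that comparison 4 were higher by 2-fold or more and 1 was lower by as much, where 1.39% and 0.872% of all genes were. With the values as deposited the 4 stood against 0 lower, where 301 of all genes were higher and 73 lower. Each gene was read from its brightest probe set. With the mean of all probe sets of a gene 2 were higher. With probe sets that are specific to 1 gene by their name 0 were higher and 1 lower, but genes without such a probe set drop out. For both of these probe set choices, here and below, the share of all genes was not computed, so nothing is read from their counts. Of the 4, KLF4 had none above the floor, JUN stood at 0.98, and those of ATF3 and CXCL2 were below the floor on most arrays. With ultrasound only 3 of 59 were higher and 0 lower (1.65% and 0.721% of all genes), and 0 were higher with gene-specific probe sets. With Sonazoid only 0 were higher and 1 lower of 60 (0.652% and 0.715%). In the combination against Sonazoid only 4 of 61 were higher and 0 lower (1.46% and 0.711%), and with gene-specific probe sets 0 were higher. In the combination against ultrasound only 0 of 60 were at 2-fold either way (0.7% and 1.16%).

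The 9 measured genes of the Tribbles family and the COP1 ligase complex had a median log2 difference of -0.08 in the combination and -0.01 with ultrasound only, beside -0.003 and 0.02 over all genes, and 0 of them reached 2-fold in any of the 5 comparisons. With 0.652% to 1.65% of all genes at 2-fold in a given direction, 0 of 9 is no result about the list. TRIB3, the stress-induced Tribbles member, read 2313 in control, 1966 with Sonazoid only, 2176 after ultrasound only and 2080 in the combination. RBX1, the RING subunit of cullin ligases, ran from 4037 to 4301, and the ubiquitin-conjugating enzyme UBE2E1 from 6289 to 7591. DET1, an adaptor of the COP1 complex chosen after its values were seen, read 406 in control, 341 with Sonazoid only and 257 on both arrays with ultrasound, a log2 difference of -0.66. COP1 itself, also named outside the rule, read 694, 709, 752 and 656 in the order control, Sonazoid only, ultrasound only and combination.

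Kinases that bind Tribbles proteins had a median of -0.24 in the combination over 5 measured genes and of 0.02 with ultrasound only. MAP2K1, the MEK1 kinase bound by TRIB1, ran from 1017 to 1067 on the 4 arrays. AKT1 read 748 in control, 657 with Sonazoid only, 970 after ultrasound only and 686 in the combination. AKT2 read 913, 749, 856 and 723 in the same order. MAPK3, the ERK1 kinase, was 1 of the genes at 2-fold: it read 146 in control, 57.4 with Sonazoid only, 129 after ultrasound only and 91.9 in the combination, a log2 difference of -1.35 with Sonazoid only. Its probe set is of the kind that can bind related sequences.

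Of the other substrates of COP1, JUN was the 1 of 5 measured at 2-fold in the combination, and the list median was -0.15. JUN, the AP-1 subunit, read 522 in control, 550 with Sonazoid only, 1306 after ultrasound only and 1378 in the combination. Both arrays with ultrasound lay above both without. The 3 other probe sets of JUN had log2 differences of the combination from control of 1.78, 2.00 and 0.98. The ETS family factors did not share this: ETS1 ran from 1421 to 1630 and ETV5 from 535 to 829, with ETV5 lower on both arrays with ultrasound (541 and 535) than without (755 and 829).

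The 9 leucine zipper partners and antagonists of C/EBP factors had a median log2 difference of 0.21 in the combination against control, with 1 gene at 2-fold. All 9 lay above 0, the lowest at 0.07, where 49.6% of all genes did. The list was chosen with earlier results of these data known, so this count is a description. With ultrasound only the median was 0.16 and 6 of 9 lay above 0, beside 53.2% of all genes. ATF3, a stress-induced repressor, read 60.4 in control, 33.7 with Sonazoid only, 113 after ultrasound only and 145 in the combination. Its order of arrays was that of TRIB1, and its departure from additivity was 1.20, inside the central 95% of departures under a mean signal of 100 (-1.41 to 1.40), where ATF3 had 88. Its other probe set above the floor on all arrays read 49.2, 57.2, 77.2 and 59.6 and did not share this order. ATF4, the effector of the integrated stress response and a partner of C/EBP beta and C/EBP gamma, read 3916, 4013, 5075 and 5825. BATF ran from 1213 to 1646 and NFE2L2 from 2323 to 2616. DDIT3, the C/EBP family antagonist CHOP, named outside the rule, read 212, 190, 269 and 226.

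Myeloid factors that act with C/EBP had a median of -0.16 in the combination over 8 measured genes, with 1 higher and 1 lower at 2-fold. KLF4, a factor of monocyte differentiation, read 183 in control, 253 with Sonazoid only, 636 after ultrasound only and 838 in the combination. SPI1, which encodes PU.1, read 120, 83.0, 106 and 59.3 in that order. Its log2 difference in the combination was -1.02, which fell short of 2-fold with the values as deposited. The -1.02 lay inside the central 95% of differences of the combination from control under a mean signal of 100 (-1.03 to 1.07), where SPI1 lay. GFI1, a transcriptional repressor of the myeloid lineage, was lower on both arrays with ultrasound (1293 and 1237) than without (1947 and 1986). MYC read 6836, 7287, 5728 and 5243, and MYB 7108, 7308, 7098 and 6002.

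Of the known myeloid targets of C/EBP alpha and C/EBP epsilon, 12 of the 16 genes on the arrays were measured in the combination against control. Their median was 0.06, beside -0.003 over all genes, with a lowest value of -0.14 and a highest of 0.25. In the 5 comparisons 0 reached 2-fold. With 0.652% to 1.65% of all genes at 2-fold in a given direction, this is no result about the list. The granule protease ELANE read 9238 in control, 7974 with Sonazoid only, 10590 after ultrasound only and 8897 in the combination. CTSG, another granule protease, read 12520, 11470, 13730 and 11560 in the same order. Lysozyme, LYZ, ran from 5319 to 5863. Targets of C/EBP beta and C/EBP delta in inflammation had a median of 0.36 in the combination over 11 measured genes and of 0.07 with ultrasound only over 10. The chemokine CXCL2 read 84.5 in control, 57.2 with Sonazoid only, 164 after ultrasound only and 206 in the combination. Its probe set too is of the kind that can bind related sequences, and its 2 other probe sets were above the floor in the combination (25.7 and 30.4) and below it elsewhere. TNF read 120, 111, 265 and 206, highest with ultrasound only, and reached 2-fold there (log2 1.14). The chemokine CXCL8 read 755, 746, 877 and 1084, the pentraxin PTX3 290.2, 295.7, 443 and 496, and the receptor antagonist IL1RN 247, 242, 300.2 and 318. IL6, PTGS2, ORM1 and NOS2 of this list, and LTF and CD14 of the list before it, all named outside the rule, were below the floor on all arrays.

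**Figure D5:**
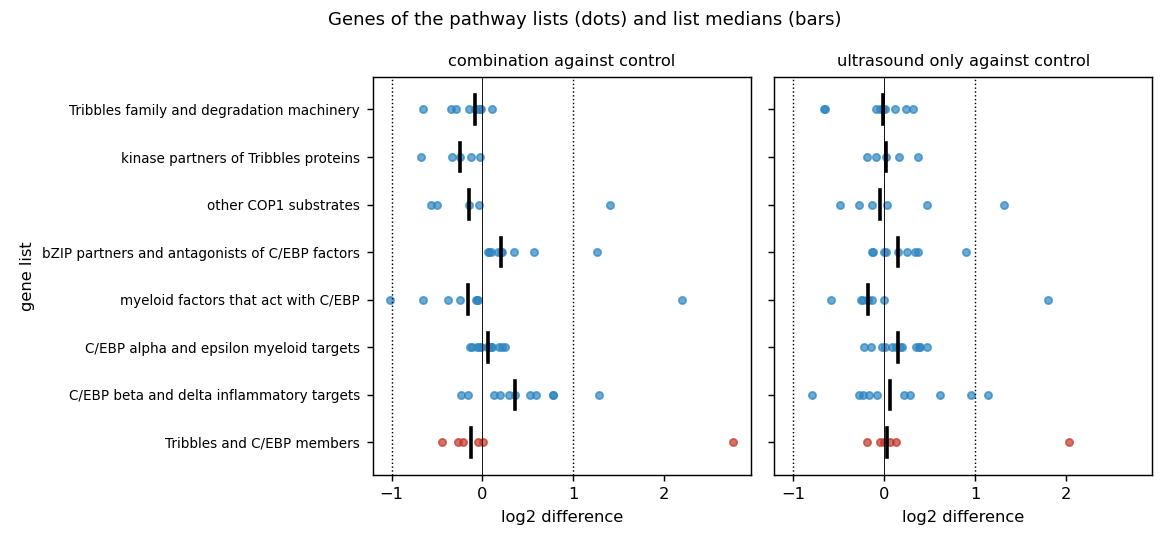
Log2 differences of the measured genes of each list (points) with the list median (black bar) for the combination and for ultrasound only, each against control; dotted lines mark 2-fold. JUN, ATF3, KLF4 and CXCL2 lie above 2-fold in the combination, and JUN, KLF4 and TNF with ultrasound only. Each gene is shown by its brightest probe set. Among these TRIB1 (bottom row), chosen for its rise in the combination, lies farther out than any list gene in both.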

How the data were processed

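The authors deposited 1 linear intensity for each probe set on each array. Its summarisation and prior scaling, and any detection calls, were not given in the sources used here. Trimmed means (2% off each end) of the arrays differed 1.16-fold, above the 1.1-fold limit set for scaling. Each array was therefore multiplied by 1 factor (control 1.04, Sonazoid only 0.977, ultrasound only 1.07, combination 0.923), floored at 23.8 and put on the log2 scale. The platform annotation gave a single symbol for 41097 of 54675 probe sets. Of these, 41043 were matched to a gene in RefSeq (GRCh38.p14) and took its symbol, whether or not it differed. Control probe sets were left out. A gene in the lists was read from its brightest probe set by mean signal. Named genes were all member probe sets, list genes at 2-fold in any comparison, the 3 brightest of each list, and the 5 genes nearest to TRIB1; other names are marked. The members and lists were chosen with earlier results of these data known. The scripts (Python 3.11.15, pandas 2.3.3, numpy 2.4.6) were tested on simulated data. Alternatives were no scaling, quantile normalisation, floors at the percentiles 25 and 75, a pseudocount of 16 and other probe set choices. With no replicates the number of arrays limits the precision.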

Additional observations from a re-analysis of the deposited data

Results flagged for a closer look

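TRIB1 (202241_at) had opposite signs for added Sonazoid in cells without and with ultrasound: the log2 difference was -0.79 between Sonazoid only and control and 0.73 between the combination and ultrasound only, which makes the departure of 1.52. Each sign rests on 1 pair of arrays, and the difference was not tested. Of the 8 member probe sets above the floor on all arrays TRIB1 202241_at was the 1 with opposite signs and a departure of at least 2-fold. The share of all probe sets that meet this rule was not computed, so nothing is read from this count. The -0.79 lay inside the central 95% of probe sets with a mean signal under 100 (-0.99 to 0.96). The 0.73 lay above the limits at signals of 400 to 1600 (-0.47 to 0.40). Each value includes the combination or the control array, by which TRIB1 was chosen, so its place beside these limits is a description.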

How the results depend on the processing

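The TRIB1 probe set 202241_at kept its direction and its side of 2-fold in the 5 comparisons under each alternative that gave a value. The stricter floor gave no value for Sonazoid only against control, and turned the 3 differences at 2-fold into lower bounds of 1.84 (combination against control), 1.11 (ultrasound only against control) and 1.84 (combination against Sonazoid only); it also took the departure from additivity to 0.73, under 2-fold. The lower floor (6.14) brought in dim probe sets of TRIB1 and CEBPD. Member probe sets at 2-fold then numbered 2 higher and 2 lower with ultrasound only, 1 lower with Sonazoid only, 2 higher and 1 lower in the combination against ultrasound only, and 2 higher in the combination against Sonazoid only. Over all genes the counts rose as well. With ultrasound only 1582 genes were then higher and 1284 lower, against 215 and 94 at the main floor. With Sonazoid only it was 1317 and 1366, against 84 and 92. Nothing is therefore read from the member counts at the lower floor. The values as deposited moved the median log2 difference of all genes to 0.16 in the combination against control and 0.19 in the combination against ultrasound only. Genes at 2-fold were then 301 higher and 73 lower, against 180 and 113 with scaling, in the first; 221 and 85, against 92 and 152, in the second; and 114 and 67, against 84 and 92, with Sonazoid only. Of the list genes 2 were then at least 2-fold higher in the combination against ultrasound only, against 0 with scaling. No paired analysis was possible because each group had 1 array, and no replicate could be left out.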
